A study of Mus musculus with 27 samples.

Results

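The comparison described here is that of dnFOS-expressing cells with and without DOX after 1 day of blast culture (d1 BC). It rests on 4 of the 27 one-colour Agilent mouse arrays of the study, 2 of d1 BC with DOX and 2 untreated, chosen by their labelled stage and their days of DOX. The cells derive from a mouse embryonic stem cell (ESC) line that carries a dominant-negative FOS peptide (dnFOS) behind a DOX-inducible promoter at the Hprt locus, and picked clones were used. Embryoid bodies were grown for 3.75 days, FLK1+ cells were purified with magnetic beads, and these were kept in blast culture, in which FLK1+ hemangioblast cells form smooth muscle, endothelial and blood cells. For d1 BC the culture lasted 24 h, with 1 µg/ml DOX for 1 day or without DOX, and RNA was taken from the complete culture. Untreated d1 BC cells carry the same cassette, and the study's arrays hold no DOX-treated cells that lack it, so that effects of DOX itself and of dnFOS cannot be told apart. The other groups used here come from the same line. They are untreated FLK1+ cells before the culture (2 arrays), 5 h cultures with and without DOX (2 each), and cells sorted after 2 days of culture with DOX or without it, namely smooth muscle (SM) cells (2 arrays with DOX and 3 untreated) and early hemogenic endothelium (HE1, KIT+TIE2+CD41-, 2 each). The labels do not say that replicates came from separate differentiations, so p-values measure only the spread between arrays. The main model pools that spread over all 27 arrays in 13 groups, not over d1 BC alone. These groups include late hemogenic endothelium (HE2) and hematopoietic progenitors (HP), with and without DOX, which are otherwise not described here.

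AP-1 is a family of basic leucine zipper transcription factors that bind DNA as dimers of JUN proteins with FOS, ATF or other JUN proteins, at the end of MAP kinase and other signalling cascades. In a cell that makes dnFOS, JUN proteins are held in pairs that cannot bind their DNA sites. Genes long known to respond to AP-1 include matrix proteases and their inhibitors, plasminogen activators, cytokines and members of the AP-1 family itself. In many cell types AP-1 shares enhancers with TEAD factors, the DNA-binding partners of YAP.

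Signals are given as log2 values relative to the 75th percentile of each array, which is set to 0, and a fold change is DOX over untreated on that scale. The 75th percentile of the intensity on the 4 arrays ranged from 335 to 726, and the share of probes well above background from 53.4% to 67.0%. Both replicates 1 lay on the same slide and both replicates 2 on another, as the scanner's headers show, so each replicate gives a difference within its own slide. Replicate arrays correlated across genes with r = 0.967 (untreated) and 0.966 (DOX), and the within-slide differences of the 2 replicates with r = 0.291, over 23975 genes tested, which are not independent replicates. The median of all log2 fold changes was 0.13. Markers of SM cells (Acta2, Tagln, Cnn1 and Myl9) were above background on all 4 arrays, as were Kdr, Tek, Cdh5 and Pecam1 of endothelium, Kit, Itga2b and Runx1 of hemogenic and blood cells, and 4 pluripotency genes. Of the endoderm and neural markers, Foxa2 and Sox1 were above background on 4 arrays, Hnf4a on 2 and Afp on 1, whereas Apoa1, Pax6, Neurod1 and Dcx were above it on 0.

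Calls required a 2-fold change or more with an adjusted p under 0.05 in a limma model over all 27 arrays. Hprt rose and Nxph2, which encodes the secreted protein neurexophilin 2, fell, and these were the only 2 genes called (0.00834% of the genes tested). The Hprt signal was 0.50 and 1.17 on the untreated arrays and 4.61 and 4.30 on the DOX arrays. The DOX arrays lay far above the untreated ones, by 4.11 and 3.14 within the slides. The fold change was 12.3, or 3.63 on the log2 scale with an SE of 0.54 and limma's adjusted p = 0.0346. This is the locus into which the cassette was placed. With the slide as a block its adjusted p was 0.0169, and no other gene was called. Hprt was called in 9 of the 20 alternatives that gave it a value, with a log2 fold change between 3.29 and 3.96 over all of them. Nxph2 had a signal of -0.69 and -1.37 in untreated d1 BC. Both DOX arrays were not well above background, at -6.16 and -7.69, a difference of at least 23.3-fold, with a fitted log2 value of -5.89, an SE of 0.87 and limma's adjusted p = 0.0346. Nxph2 was tested through its untreated arrays alone, so its fitted value and p rest on DOX signals that were not above background. Its signal was also between -7.86 and -6.10 in untreated FLK1+ cells and in 5 h cultures with and without DOX, far below that of untreated d1 BC. With the slide as a block the adjusted p of Nxph2 was 0.129, and it was called in 8 of 19 alternatives. The number of calls hung on single arrays. It was 10 higher and 1 lower without DOX replicate 1, 12 and 0 without DOX replicate 2, 0 and 56 without untreated replicate 1, and 0 and 3 without untreated replicate 2.

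In all, 403 genes had an unadjusted p under 0.05 (1.68%), and 259 of these were at least 2-fold lower (1.08%) and 134 at least 2-fold higher (0.559%). The lower genes were the more numerous in all settings that left out an array except that without DOX replicate 2, where 209 were lower and 424 higher. Without DOX replicate 1 the counts were 294 lower and 214 higher, without untreated replicate 1 439 and 173, and without untreated replicate 2 386 and 79. Among genes whose groups did not overlap, the DOX arrays were the lower ones for 2336 (9.74%) and the higher ones for 4408 (18.4%). Genes that in addition differed at least 2-fold within each slide are referred to below as at least 2-fold lower, or higher, in both replicates. They numbered 352 lower (1.47%) and 248 higher (1.03%). All 4 arrays were above background for 246 of the 352 lower genes and for 128 of the 248 higher ones. Above background on no DOX array were 57 of the lower genes (82 of all genes tested). Above background on no untreated array were 80 of the higher genes (198 of all genes tested).

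**Figure D1:**
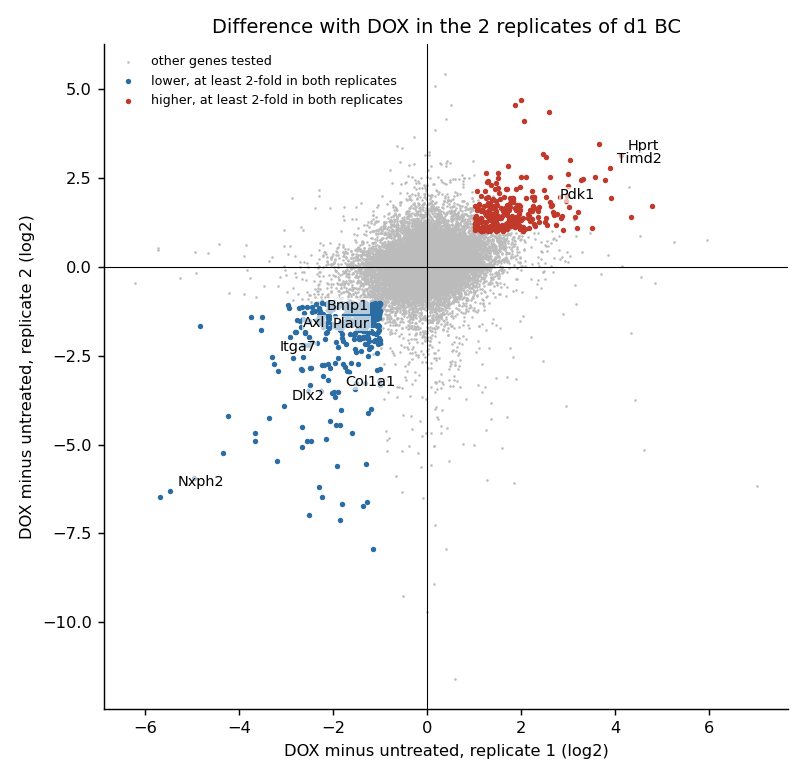
Difference between DOX and untreated d1 BC (log2) in replicate 1 (x axis) and in replicate 2 (y axis), each within its slide, for the 23975 genes tested. Blue points are the 352 genes at least 2-fold lower in both replicates, red points the 248 at least 2-fold higher, and Hprt lies at 4.11 and 3.14.

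Members of a list of AP-1 target genes were mostly lower with DOX. The list was chosen with earlier results of these data known, so its direction is no independent evidence. Of its 24 members, 17 were tested. Of these, 14 had a log2 fold change below 0, against 37.1% of all genes tested, and the median was -1.21. The groups did not overlap for 14 members, the DOX arrays being the lower ones for 12 (all genes, 9.74%) and the higher ones for 2 (all genes, 18.4%). At least a 2-fold lower signal in both replicates was found for 8 of the 17 (all genes, 1.47%), and 3 were lower at an unadjusted p under 0.05 (all genes, 1.08%). None was called over all genes. Within the slides the median was -1.23 in replicate 1 and -1.19 in replicate 2.

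Plaur, the cell surface receptor of urokinase, gave 5.09 and 4.44 on untreated and 2.93 and 2.58 on DOX arrays, so that the groups were separated by more than the spread of either. Its log2 fold change was -2.01 (SE 0.59, adjusted p = 1.0, limma's unadjusted p = 0.00302). Plau, urokinase itself, gave -2.86 and -2.61 against -4.08 and -4.26 with DOX, and the log2 fold change was -1.43. The protease and its receptor thus both had DOX arrays below untreated arrays. Mmp9, a gelatinase, gave -1.73 and -1.86 on untreated arrays and -3.87 and -3.70 on DOX arrays (log2 fold change -1.99, SE 0.62). Timp1, an inhibitor of matrix metalloproteases, gave 2.96 and 2.15 against 0.84 and 0.60 (log2 fold change -1.84, SE 0.91). Mmp14, Fosl1 and Hbegf were also at least 2-fold lower in both replicates. The SE of Mmp14 was 1.06, larger than most, and it did not reach an unadjusted p under 0.05. Krt18 and Hmox1 had log2 fold changes of 0.15 and 0.29, and Gclc, a subunit of the glutathione-synthesizing enzyme, of 0.77.

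The bases before the start of these genes were searched for the AP-1 letters TGANTCA and TGACGTCA and the TEAD letters GGAATG, on both strands, in the 250 bases before each start in RefSeq (GRCm38.p6). TGANTCA and TGACGTCA each read the same on both strands, and none of the searched runs of letters contains another. Of the genes at least 2-fold lower in both replicates, 264 had a symbol and 186 of these a promoter in the table, and TGANTCA was found for 15 of them (8.06%). It was found for 5.51% of the higher genes, 5.72% of all genes tested and 6.75% of all promoter windows. GGAATG was found for 14.5% of the lower genes, 18.9% of the higher genes, 13.3% of all genes tested and 12.6% of all windows. TGACGTCA was found for 1.61%, 1.57%, 2.88% and 1.55% in the same order. The 15 genes with TGANTCA were Smr3a, P2ry14, Chst4, Cav2, Col6a1, Plaur, Esx1, Sprr1a, Emp1, F2rl2, Procr, Apobr, Unc93a, Ecm1 and Phyhd1. The windows of Plaur and Col6a1, among the lowest list members with TGANTCA, and those of Axl and Ankrd1, with GGAATG, are shown as examples that hold the letters, 5′ to 3′ on the strand of the gene, with the letters found in capitals. Plaur lies on the plus strand and the other 3 genes on the minus strand. By list, TGANTCA was found for 3 of 9 AP-1 target genes with a promoter in the table, 0 of 8 vascular FOS:JUN targets and 1 of 12 YAP/TEAD target genes, and GGAATG for 6 of the last 12. A match describes the letters and not a bound site.
Plaur, chr7:24462233-24462482, TGACTCA starting 69 bases before the start:
Plaur: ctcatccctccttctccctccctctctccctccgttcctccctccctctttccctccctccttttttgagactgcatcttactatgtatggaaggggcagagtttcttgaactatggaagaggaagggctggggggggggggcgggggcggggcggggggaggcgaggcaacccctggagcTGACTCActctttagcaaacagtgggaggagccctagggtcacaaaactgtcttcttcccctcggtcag
Col6a1, chr10:76726045-76726294, TGACTCA starting 90 bases before the start:
Col6a1: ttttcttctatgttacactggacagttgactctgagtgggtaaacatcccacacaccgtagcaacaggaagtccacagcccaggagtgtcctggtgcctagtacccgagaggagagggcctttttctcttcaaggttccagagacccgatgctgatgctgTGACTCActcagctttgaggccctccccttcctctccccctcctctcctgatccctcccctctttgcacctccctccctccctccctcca
Axl, chr7:25788734-25788983, GGAATG starting 233 bases before the start:
Axl: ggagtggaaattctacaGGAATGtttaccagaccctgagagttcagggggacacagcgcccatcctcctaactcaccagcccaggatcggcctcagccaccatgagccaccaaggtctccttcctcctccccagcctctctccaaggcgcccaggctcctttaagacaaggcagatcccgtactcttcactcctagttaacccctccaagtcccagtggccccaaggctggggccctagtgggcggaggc
Ankrd1, chr19:36119845-36120094, GGAATG starting 210 and 123 bases before the start:
Ankrd1: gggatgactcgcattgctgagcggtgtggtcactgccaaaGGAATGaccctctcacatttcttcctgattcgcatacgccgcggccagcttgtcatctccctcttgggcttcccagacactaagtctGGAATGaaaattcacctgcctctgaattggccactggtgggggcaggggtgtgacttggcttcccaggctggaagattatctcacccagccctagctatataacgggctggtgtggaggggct

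Of 14 collagen genes tested, 8 had a log2 fold change below 0 (all genes, 37.1%) and 6 above (all genes, 62.9%), with a median of -0.83. Below, separate lower or higher means that both DOX arrays were on that side of the untreated pair. Col8a1 was separate higher (all genes, 18.4%), at -2.88 and -1.87 against -1.85 and -1.64. The 7 with separate lower arrays (all genes, 9.74%) were the same 7 that were at least 2-fold lower in both replicates (all genes, 1.47%). At an unadjusted p under 0.05, 4 were lower (all genes, 1.08%). Col1a1, the main chain of fibrillar collagen I, gave 4.49 and 4.35 on untreated and 2.58 and 0.84 on DOX arrays (log2 fold change -2.71, SE 1.39). Col5a1 gave 5.44 and 4.58 against 3.65 and 1.84 (log2 fold change -2.26, SE 0.85). Col6a1 gave 0.45 and 0.37 against -1.46 and -1.90 (log2 fold change -2.09, SE 0.66). Replicate 2 with DOX was the lower of the DOX arrays for all 3. Both chains of the basement membrane collagen IV lay lower, with log2 fold changes of -1.73 (Col4a1, SE 0.66) and -1.37 (Col4a2, SE 0.53), as did Col3a1 (-1.42) and Col16a1 (-1.23). Col1a2, the partner chain of Col1a1, gave 1.52 and 2.76 against 2.04 and 1.39, with overlapping groups. Within the slides the collagen median was -0.27 in replicate 1 and -1.39 in replicate 2.

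Among 25 laminin and integrin genes the median was -0.28, with 7 separate lower (all genes, 9.74%) and 2 separate higher (all genes, 18.4%). Itga7, the integrin subunit that binds laminin on muscle cells, gave 2.81 and 1.96 on untreated and -0.49 and -0.57 on DOX arrays. The log2 fold change of Itga7 was -2.91 (SE 0.77, adjusted p = 1.0, limma's unadjusted p = 0.00136). Itga11, a collagen receptor subunit, gave -0.69 and -1.27 against -1.98 and -3.28 (log2 fold change -1.65, SE 0.69). Itga1, another collagen receptor subunit, went the other way, with -2.54 and -1.68 against -1.42 and -0.36 (log2 fold change 1.22, SE 0.67).

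A list of 17 vascular genes with FOS and JUN binding was chosen by the study, so its direction is no independent evidence. Of these, 16 had a log2 fold change below 0 (all genes, 37.1%), the median was -1.12, and 14 had both DOX arrays under the untreated pair (all genes, 9.74%). At least a 2-fold lower signal in both replicates was found for 7 (all genes, 1.47%), which included Col1a1, Col5a1, Bmp1, Col4a1, Itga11 and Hbegf. Bmp1, the protease that trims procollagens and activates BMP ligands, gave 6.06 and 5.25 on untreated and 3.76 and 3.89 on DOX arrays (log2 fold change -1.83, SE 0.49, adjusted p = 1.0). Ccn2, Tgfb2, Bmp2, Pdgfc and Myo1e had log2 fold changes between -1.20 and -0.72, each with separate groups. Wt1, a zinc finger factor of mesothelium, gave 1.29 and 1.44 against 1.58 and 1.02, and Vegfa 2.43 and 2.75 against 2.71 and 2.56, so that both overlapped. The guidance receptor gene Nrp1 gave 0.58 and 1.38 against -0.65 and 1.65.

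**Figure D2:**
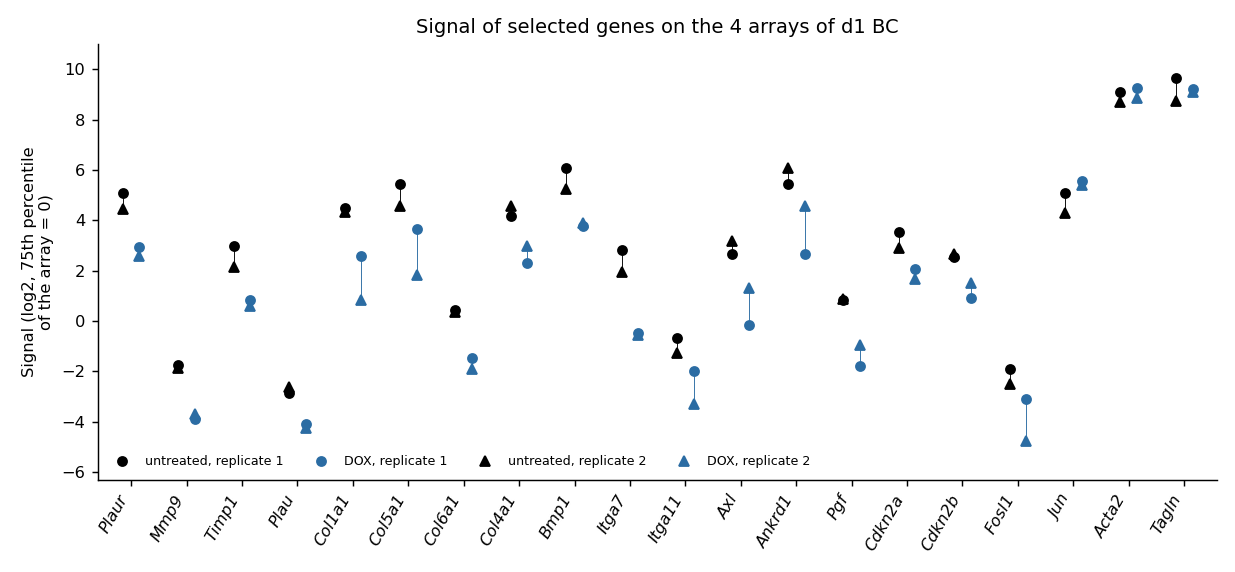
Signal of 20 genes on the 4 arrays of d1 BC (log2, 75th percentile of the array set to 0). Black symbols are untreated and blue symbols DOX arrays, circles replicate 1 and triangles replicate 2. DOX arrays lie below untreated arrays from Plaur to Fosl1, above them for Jun, and overlap them for Acta2 and Tagln.

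Actin-binding, adhesion and YAP/TEAD target genes also had more separate lower than higher members. Of 25 actin and focal adhesion genes, 23 had a log2 fold change below 0 (all genes, 37.1%), with a median of -0.58. The separate members were 13 lower (all genes, 9.74%) and 1 higher (all genes, 18.4%), and 3 were lower at an unadjusted p under 0.05 (all genes, 1.08%). Anxa1, a calcium-dependent membrane-binding protein, gave 4.08 and 4.25 against 1.85 and 2.57 (log2 fold change -1.95, SE 0.65). Flnc, the muscle filamin, gave 6.41 and 5.89 against 5.37 and 3.88 (log2 fold change -1.52, SE 0.55), and S100a6 6.98 and 6.12 against 5.24 and 5.03 (-1.41, SE 0.68). Of 18 YAP/TEAD target genes, 9 were separate lower (all genes, 9.74%) and 1 higher (all genes, 18.4%), 3 were at least 2-fold lower in both replicates (all genes, 1.47%), and the median was -0.37. Axl, a receptor tyrosine kinase, gave 2.66 and 3.17 on untreated and -0.14 and 1.33 on DOX arrays (log2 fold change -2.32, SE 0.72, adjusted p = 1.0). Ankrd1, a muscle ankyrin repeat protein, gave 5.43 and 6.07 against 2.67 and 4.58 (log2 fold change -2.13, SE 1.44). Here DOX replicate 1 was the lower array in both genes. The guanine nucleotide exchange factor gene Dock5 had a log2 fold change of -1.26 (SE 0.60). Ccn1, a classical YAP target, gave 5.37 and 5.26 against 5.19 and 4.12, and Amotl2, F3 and Lats2 had log2 fold changes of -0.27, -0.05 and 0.15. The 19 TEAD and Hippo factors themselves had a median of -0.02, with 3 separate lower (all genes, 9.74%), 0 higher (all genes, 18.4%) and 0 at least 2-fold lower in both replicates (all genes, 1.47%).

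Ligands of vascular growth differed within their families, with Pgf, Pdgfb and Angpt2 lower on DOX arrays while Vegfa, Pdgfa and Angpt1 overlapped. Of 18 tested ligand genes, 9 were separate lower (all genes, 9.74%) and 1 higher (all genes, 18.4%), 5 were at least 2-fold lower in both replicates (all genes, 1.47%), and the median was -0.52. Pgf, placental growth factor, gave 0.84 and 0.89 on untreated and -1.78 and -0.96 on DOX arrays (log2 fold change -2.23, SE 0.84). Pdgfb gave 4.50 and 3.16 against 2.87 and 1.66 (-1.56, SE 1.1), Angpt2 -2.97 and -3.61 against -4.61 and -4.66 (-1.34, SE 0.52), and Fgf15 -0.80 and -1.06 against -2.18 and -2.88 (-1.60, SE 0.82). Fgf10 was the member with separate higher arrays, at 1.42 and 2.32 against 3.32 and 2.73 (log2 fold change 1.16, SE 0.49). Vegfa, Vegfb, Vegfd, Pdgfa and Angpt1 overlapped. The 22 TGF-beta and BMP genes had a median of -0.16, with 9 separate lower and 1 higher, against the same shares of all genes. All 3 TGF-beta ligands were among the lower ones, with log2 fold changes of -1.21 (Tgfb1, SE 0.81), -1.12 (Tgfb2, SE 0.60) and -1.25 (Tgfb3, SE 0.64). The exception was Bmp5, at -3.17 and -2.81 against -1.87 and -1.11 (log2 fold change 1.5, SE 0.95).

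The AP-1 genes themselves did not move together. Of 12 tested members, 7 had a log2 fold change below 0, 3 were separate lower (all genes, 9.74%) and 2 separate higher (all genes, 18.4%), and the median was -0.22. Fosl1, which encodes FRA1, gave -1.89 and -2.51 on untreated and -3.08 and -4.76 on DOX arrays (log2 fold change -1.72, SE 0.83, limma's unadjusted p = 0.0524), and was the sole member at least 2-fold lower in both replicates. Fosl2 gave 3.35 and 3.1 against 2.41 and 2.31 (-0.87, SE 0.43) and Fos 2.89 and 2.51 against 2.50 and 1.88 (-0.51, SE 0.80). Jun gave 5.08 and 4.30 against 5.57 and 5.38 (log2 fold change 0.78, SE 0.55), so that the DOX arrays were the higher ones. Atf2 was also separate higher, at 2.29 and 2.89 against 3.22 and 2.94 (log2 fold change 0.49, SE 0.50), although its 4 probes ranged from -0.01 to 0.49. Fosb, Atf3, Junb, Batf3, Jdp2, Batf2 and Jund overlapped. The fold changes of Fosb, Atf3, Junb, Batf3, Batf2 and Jund turned sign in at least 1 of the alternatives.

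Genes of the smooth muscle contractile apparatus mostly overlapped between the groups. Of 17 tested, 13 had a log2 fold change below 0 (all genes, 37.1%), between -0.63 and 0.68 over the list. Separate were 2 lower (all genes, 9.74%) and 1 higher (all genes, 18.4%), 0 were at least 2-fold different in both replicates (all genes, 1.47% lower and 1.03% higher), and 0 reached an unadjusted p under 0.05. Acta2, smooth muscle actin, gave 9.08 and 8.70 on untreated and 9.26 and 8.84 on DOX arrays (log2 fold change 0.16, SE 0.65). Tagln, which encodes SM22 alpha, gave 9.66 and 8.74 against 9.22 and 9.09 (-0.05, SE 0.93), and Cnn1, calponin, 6.49 and 5.99 against 6.04 and 5.59 (-0.42, SE 1.18). All 3 overlapped between the groups, although the differences within the slides had the same sign in both replicates for Cnn1 (-0.44 and -0.40) and Acta2 (0.17 and 0.14). The median of the list was -0.27. The summed signal of Acta2, Tagln, Cnn1 and Myl9, as log2 of the sum, was 10.6 and 9.97 on untreated and 10.5 and 10.2 on DOX arrays. As the arrays measured complete cultures, fewer cells of a type and less RNA per cell cannot be told apart for any gene.

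The 30 endothelial genes had a median of 0.16, close to the 0.13 of all genes, with 4 separate lower (all genes, 9.74%) and 8 separate higher (all genes, 18.4%). Hey2, a Notch target of arterial cells, gave -3.03 and -3.12 on untreated and -0.90 and -2.28 on DOX arrays (log2 fold change 1.49, SE 0.84), and Sox17 0.00 and 0.32 against 1.79 and 0.97 (1.22, SE 1.46). Kdr, which encodes FLK1, gave 3.95 and 2.66 against 4.27 and 3.97 (0.82, SE 0.81), and its other probe had a difference of -0.32. Vwf and Elk3 lay on the lower side, with log2 fold changes of -1.14 and -1.06.

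Of 20 blood transcription factors tested, 4 were separate lower (all genes, 9.74%) and 2 higher (all genes, 18.4%), with a median of -0.19. Mecom, which encodes EVI1, gave -1.61 and -1.44 on untreated and -3.93 and -7.63 on DOX arrays. Its log2 fold change of -4.26 (SE 1.12, adjusted p = 1.0) rested largely on DOX replicate 2, which was not above background, and the other probe of the gene gave -1.99. Runx1, the factor required for the formation of blood from hemogenic endothelium, gave 1.81 and 1.22 against 0.89 and 0.08 (log2 fold change -1.02, SE 0.66). The summed signal of Kit, Itga2b, Runx1 and Ptprc was 1.98 and 1.66 on untreated and 1.21 and 0.84 on DOX arrays. Runx1 weighs most in this sum and alone among these genes was separate lower. Kit and Itga2b overlapped between the groups and Ptprc was separate higher, so the lower sum does not describe blood markers in general. Of the 3 genes related to hematopoietic stem cells in the study, Hoxb4 gave 0.68 and 1.13 against 2.16 and 1.56 (0.95, SE 0.53) and Bmi1 -0.17 and 1.02 against 1.64 and 1.47 (1.13, SE 0.79), with the DOX arrays above. Gfi1 gave -1.21 and 0.21 against -2.20 and -0.98, with overlap between the groups but differences of -0.99 and -1.19 within the slides. Hoxb4 and Bmi1 had their larger difference in replicate 1, of 1.48 for Hoxb4 and 1.81 for Bmi1, against 0.43 and 0.45 in replicate 2.

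Of the sorting markers, Kit, Tek and Itga2b (CD41) overlapped between the groups, and Kdr, Tfrc and Ptprc were separate higher (all genes, 18.4%). Itgam was separate lower (all genes, 9.74%) by its brightest probe, at -0.36, but its 3 probes ranged from -0.36 to 0.75 and their mean turned the value to 0.21. Ptprc, the pan-leukocyte marker CD45, was above background on the 2 DOX arrays alone and was at least 1.78-fold higher. Irf8, a myeloid factor, behaved alike, at least 3.41-fold higher (log2 fold change 2.11, SE 0.69), while Cebpb, another myeloid factor, gave 2.79 and 1.14 against 1.03 and -0.01 (-1.45, SE 0.69). The 14 myeloid genes together had a median of 0.12, with 2 separate in each direction, shares near those of all genes (9.74% lower and 18.4% higher). Medians were 0.02 for 13 erythroid, -0.12 for 9 megakaryocyte and -0.35 for 16 hematopoietic surface genes. In the last list Csf2rb had a log2 fold change of -1.54, but its other probe gave 0.26.

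Among genes of mesoderm and mesenchyme, Twist2, Foxc2 and Snai1 were at least 2-fold lower in both replicates, 3 of 27 tested (all genes, 1.47%). Twist2, a basic helix-loop-helix factor, gave 2.85 and 1.44 against 0.23 and -0.75 (log2 fold change -2.41, SE 0.90), and Snai1, a repressor of epithelial genes, 2.35 and 1.89 against 1.12 and 0.38 (-1.37, SE 0.66). The related Twist1, Snai2, Zeb1 and Zeb2 overlapped, with log2 fold changes of 0.03, 0.32, 0.09 and -0.24. Tbx5, a cardiac factor, was at least 2-fold higher in both replicates, at -3.84 and -4.62 against -2.44 and -3.34 (1.34, SE 0.69). The median of the list was 0.05.

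Cell division genes lay slightly higher with DOX. Of 22 tested, 19 had a log2 fold change above 0 (all genes, 62.9%), and 9 were separate higher (all genes, 18.4%) and 0 lower (all genes, 9.74%). The median was 0.23, against 0.13 for all genes tested. All members lay between -0.13 and 0.58 and 0 reached an unadjusted p under 0.05. Mki67 gave 4.64 and 5.16 on untreated and 5.33 and 5.52 on DOX arrays (log2 fold change 0.52, SE 0.47), and Pcna 6.15 and 6.13 against 6.81 and 6.63 (0.58, SE 0.95). Of 7 cyclin-dependent kinase inhibitor genes, the neighbours Cdkn2a and Cdkn2b were at least 2-fold lower in both replicates (all genes, 1.47%). Cdkn2a, which encodes p16 and p19ARF, gave 3.53 and 2.89 against 2.07 and 1.66 (log2 fold change -1.34, SE 0.60, limma's unadjusted p = 0.0376), and Cdkn2b, which encodes p15, 2.55 and 2.66 against 0.91 and 1.53 (-1.38, SE 1.19). Cdkn1a, which encodes p21, gave 3.83 and 2.29 against 3.21 and 1.69, with overlapping groups but differences of -0.62 and -0.60 within the slides.

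**Figure D3:**
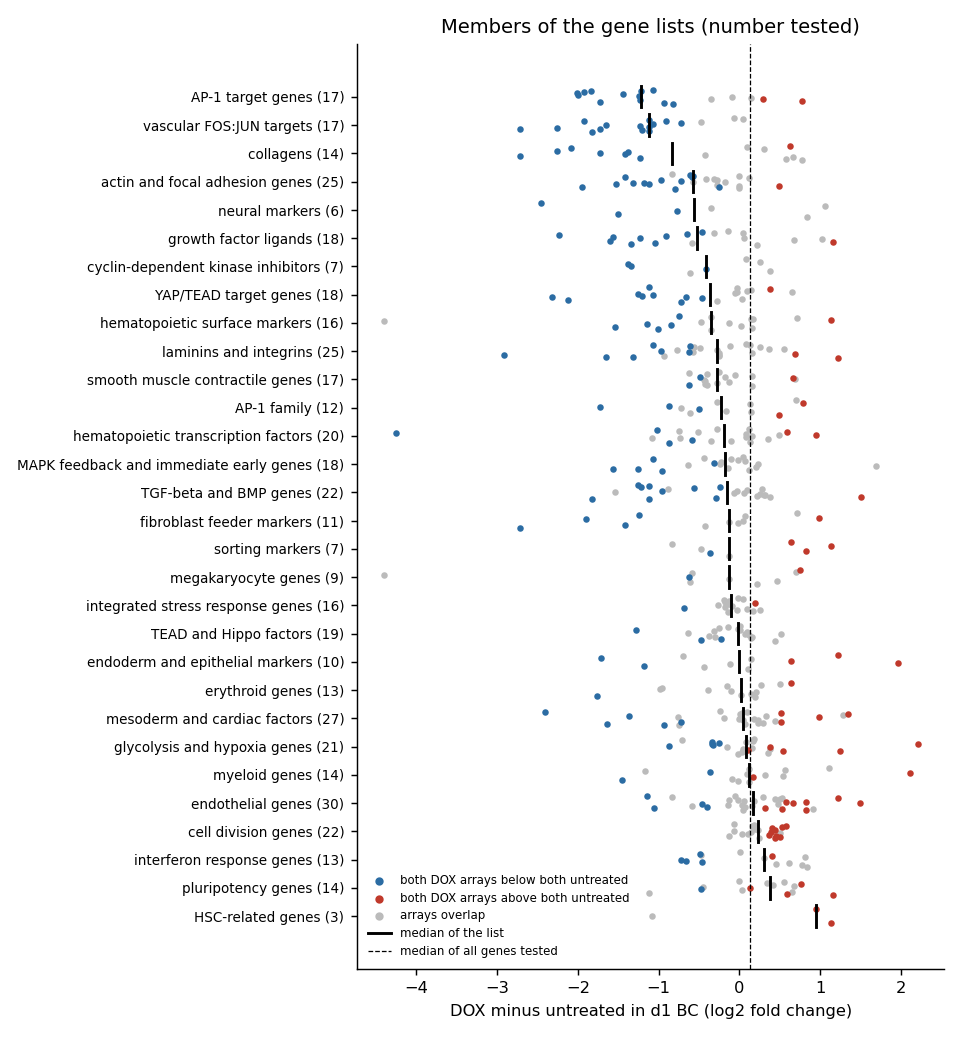
Log2 fold change with DOX in d1 BC (x axis) of the tested members of 30 gene lists (y axis, number tested in parentheses). Points are blue where both DOX arrays lie below both untreated arrays, red where both lie above, and grey where they overlap. Bars are list medians, from -1.21 for AP-1 target genes to 0.95 for 3 HSC-related genes, and the dashed line is the median of all genes, 0.13.

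In the remaining lists, separate lower and higher members numbered 5 and 5 of 21 glycolysis and hypoxia genes, 4 and 1 of 13 interferon response genes, 1 and 1 of 16 integrated stress response genes, 1 and 4 of 14 pluripotency genes, 2 and 3 of 10 endoderm and epithelial, 4 and 1 of 11 feeder and 3 and 0 of 6 neural markers (all genes, 9.74% and 18.4%). Medians were -0.18 for 18 MAPK feedback and immediate early genes (5 separate lower, 0 higher), -0.11 for 16 integrated stress response genes, 0.30 for 13 interferon response genes and 0.08 for 21 glycolysis and hypoxia genes. Of the first list Dusp5, an ERK phosphatase, was at -1.56 with 1 DOX array above background, and Egr2, an immediate early zinc finger factor and the sole member with an unadjusted p under 0.05 in limma, at 1.69 with 1 untreated array above background and overlapping groups. Among the glycolysis and hypoxia genes Pdk1, the kinase that restrains pyruvate entry into mitochondria, gave -1.61 and -1.75 on untreated and 1.05 and 0.00 on DOX arrays (log2 fold change 2.21, SE 0.54, adjusted p = 1.0, limma's unadjusted p = 0.000667). The other glycolytic and hypoxia genes had log2 fold changes between -0.87 and 1.24. Pluripotency genes had a median of 0.38 over 14 members, with Dnmt3b, a de novo DNA methyltransferase, at 3.96 and 4.01 against 5.60 and 4.69. Lists of cells that could remain in such cultures gave medians of -0.13 for 11 feeder fibroblast markers, 0.00 for 10 endoderm and epithelial markers and -0.56 for 6 neural markers. Of the feeder markers Col1a1, Col3a1 and S100a4 were at least 2-fold lower in both replicates (all genes, 1.47%), 2 of which are collagens of the matrix list, and Pdgfra was separate higher, at 0.07 and 0.34 against 1.56 and 0.82. The part of feeder cells in the collagen values was not tested. Krt19, a keratin, gave 5.74 and 5.60 against 3.38 and 4.54 (-1.71, SE 1.13), whereas Foxa1, a pioneer factor of endoderm, gave -4.35 and -4.42 against -2.11 and -2.73 (1.97, SE 0.67). Tubb3 (-2.45, SE 1.68) and Ncam1 (-1.5, SE 0.59) were lower in both replicates, while the neural factors Pax6, Neurod1 and Dcx were above background on 0 arrays.

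The 12 genes with symbols and the lowest fold changes among those at least 2-fold lower in both replicates were Nxph2, Olfr1317, Mecom, Syt10, Upp2, Rxfp1, Olfr510, Smr3a, Olfr591, Olfr862, Iqcf6 and Dlx2. Most were dim, and 9 of the 12 were above background on no DOX array, so that their place rests on fitted values too. Dlx2, a homeobox factor, was above background on all 4, at -1.06 and -1.21 against -4.11 and -5.11 (log2 fold change -3.48, SE 0.72, adjusted p = 0.584). The 12 highest were Hprt, Spink1, Timd2, Ifit1bl1, Gjb2, Serpina5, Pcdh8, Adgrb3, Dmbx1, Alx1, St8sia3 and Optc. Of these, 5 were above background on no untreated array, so that their place rests on fitted values, and their bounds ran from at least 2.25-fold (Adgrb3) to at least 5.06-fold (Pcdh8). Timd2, a receptor of ferritin, gave -3.95 and -2.93 on untreated and -0.08 and -0.14 on DOX arrays (log2 fold change 3.33, SE 0.75, adjusted p = 0.869). Spink1, a trypsin inhibitor, gave -0.77 and -1.75 against 2.89 and 1.70 (3.55, SE 1.33).

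Some brighter genes were named after their values were seen, for their low unadjusted p with all 4 arrays above background. Nav1, a microtubule-associated protein, gave 1.8 and 1.52 against -0.44 and -1.22 (log2 fold change -2.49, SE 0.53, adjusted p = 0.584). Cdk18, a cyclin-dependent kinase of the PCTAIRE group, gave 4.0 and 3.48 against 1.37 and 0.94 (log2 fold change -2.59, SE 0.61, adjusted p = 0.869). Tnfrsf12a, the receptor of TWEAK, gave 5.08 and 4.57 against 2.12 and 3.49 (log2 fold change -2.02, SE 0.53). All 3 had both DOX arrays more than 1 log2 unit below the untreated arrays. On the higher side, Dnmt3l, a cofactor of de novo DNA methylation, gave 0.22 and -0.13 against 2.40 and 1.48 (log2 fold change 1.90, SE 0.53), and L1td1, an RNA-binding protein of pluripotent cells, 1.72 and 1.77 against 4.32 and 3.60 (2.21, SE 0.89).

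The earlier stages of the same culture place these levels in time. From FLK1+ cells to untreated d1 BC, Plaur went from -0.26 and -0.50 to 4.72 and 4.28 at 5 h and then 5.09 and 4.44, and with DOX it was 3.99 and 3.89 at 5 h and 2.93 and 2.58 at d1. Axl went from -2.36 and -1.1 to 1.83 and 1.84 and then 2.66 and 3.17, and with DOX it was 0.91 and 1.46 at 5 h. Ankrd1 started at -2.71 and -3.45 and reached 4.14 and 3.69 at 5 h, against 2.00 and 2.77 with DOX. For these 3 genes the DOX arrays of d1 BC lay well above FLK1+ cells and below untreated d1 BC. Bmp1 with DOX at d1, 3.76 and 3.89, was closer to the 3.52 and 3.37 of FLK1+ cells than to the 6.06 and 5.25 of untreated d1 BC. Cdkn2a was between -1.56 and -0.34 on FLK1+ and all 5 h arrays, and both d1 BC groups were above that range. Pdk1 went the other way in time, from 0.85 and 0.38 in FLK1+ cells to -1.63 and -1.45 at 5 h, and at d1 it was 1.05 and 0.00 with DOX against -1.61 and -1.75 without. Acta2 went from 1.24 and 0.87 to 4.98 and 4.76 and then 9.08 and 8.70, and its DOX arrays stayed close to the untreated ones at 5.20 and 4.73 at 5 h.

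**Figure D4:**
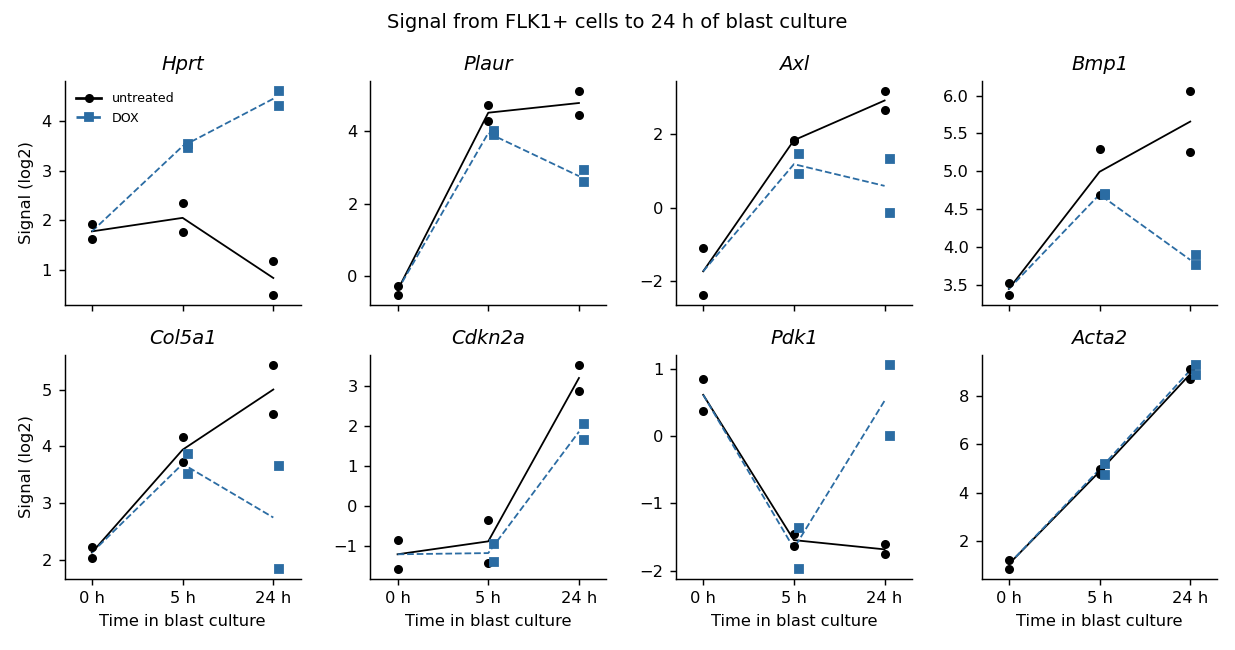
Signal of 8 genes (log2, 75th percentile of the array set to 0) in untreated FLK1+ cells (0 h) and after 5 h and 24 h of blast culture, each point an array, with lines through the means of untreated (black) and DOX arrays (blue, dashed, drawn from the untreated 0 h mean). Hprt separates at 5 h and 24 h, the DOX points of Plaur, Axl, Bmp1, Col5a1 and Cdkn2a lie below the untreated points at 24 h, and those of Acta2 overlap them.

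At 5 h the fold changes with DOX of these genes were smaller than at d1, and no difference between the stages was called. Untreated replicate 1 of the 5 h culture lay on another slide than DOX replicate 1, so that slide and DOX cannot be told apart in that replicate, and both 5 h DOX arrays share slides with d1 BC arrays. Hprt had a log2 fold change of 1.45 at 5 h, Plaur of -0.56, Axl of -0.65, Ankrd1 of -1.53, Col1a1 of -0.41, Bmp1 of -0.30 and Itga7 of -0.15. Of the 352 genes at least 2-fold lower in both replicates of d1 BC, 290 were tested at 5 h, 78.3% had a fold change below 0 there (all genes tested at 5 h, 49.2%), and the median was -0.34 against 0.01 for all. None of the 290 was at least 2-fold lower at an unadjusted p under 0.05 (all genes, 0.168%). Of the 248 higher genes 163 were tested at 5 h, 55.8% of them were above 0 (all genes, 50.8%) and 1.84% were at least 2-fold higher at an unadjusted p under 0.05 (all genes, 5.37%). In the test of the difference between the effects at d1 and at 5 h, limma called 0 of 22366 genes, and 258 reached an unadjusted p under 0.05 (1.15%). Bmp1 differed by -1.53 between the stages (unadjusted p = 0.0396 in limma, adjusted p = 1.0) and Itga7 by -2.76 (0.0208, adjusted p = 1.0).

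SM and HE1 cells, sorted a day later, were measured on other arrays than d1 BC and share no control array with it, although replicate 1 of SM cells with and without DOX shares a slide with replicate 2 of d1 BC. In SM cells 283 of the 352 lower genes were tested, 262 of them had a fold change below 0 (92.6%, all genes 44.4%), and the median was -1.18 against 0.08 for all. At least 2-fold lower at an unadjusted p under 0.05 in SM cells were 109 of the 283 (38.5%, all genes 1.98%). In HE1 cells 246 were tested, 77.6% were below 0 (all genes, 43.6%), 29 were at least 2-fold lower at an unadjusted p under 0.05 (11.8%, all genes 0.664%) and the median was -0.52. The 248 higher genes were above 0 in SM cells for 70.0% of 180 tested (all genes, 55.6%), with 21 at least 2-fold higher at an unadjusted p under 0.05 (11.7%, all genes 0.709%). In HE1 cells the corresponding values were 69.2% of 117 (all genes, 56.4%) and 14 genes (12%, all genes 0.586%). For the lower genes the share below 0 was thus highest in SM cells and close in HE1 cells and the 5 h culture, and differences between these shares were not tested.

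**Figure D5:**
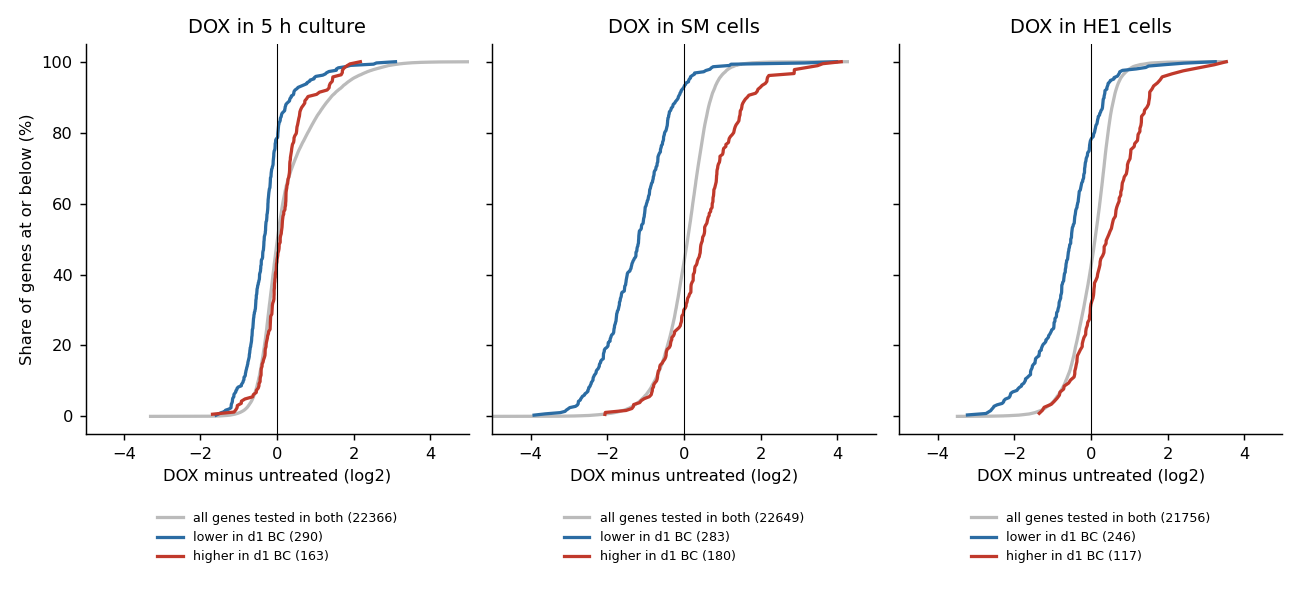
Share of genes (y axis, %) with a DOX log2 fold change at or below the value on the x axis in 5 h cultures, SM cells and HE1 cells. Blue lines are the genes at least 2-fold lower in both replicates of d1 BC, red lines those at least 2-fold higher, and grey lines all genes tested in both, with the number of genes under each panel. The blue line crosses 0 at 92.6% in SM cells, 78.3% at 5 h and 77.6% in HE1 cells.

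Single genes differed in how far they carried over. Plaur had log2 fold changes of -2.29 in SM and -2.27 in HE1 cells, and Axl of -2.29 and -1.71. Anxa1 (-2.35 and -1.93), Cdkn2a (-2.10 and -1.55) and Krt19 (-2.42 and -2.53) had values of like size in both populations. Col5a1 had -0.46 in SM and 0.42 in HE1 cells, and Twist2 -0.54 and 1.18, values smaller than in d1 BC or of the other sign. For Col5a1 the difference from d1 BC had an unadjusted p in limma of 0.136 against SM and 0.0393 against HE1 cells. Neither gene was called in these tests. Dlx2 had -3.07, Timd2 3.62 and Mmp9 -1.5 in SM cells, and all 3 were too dim in HE1 cells to be tested there. Fosl1 and Nxph2 were too dim in either population. Angpt2, lower in d1 BC, had 1.23 in SM and 0.72 in HE1 cells. Irf8, higher in d1 BC, had -1.31 in SM cells. In d1 BC it was above background on the DOX arrays alone, so the size of the difference between the effects is not known. In the tests of the difference between d1 BC and each sorted population, limma called 0 of 22649 genes against SM cells and 0 of 21756 against HE1 cells, and 102 and 108 genes reached an unadjusted p under 0.05 (0.45% and 0.496%).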

How the data were processed

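The 27 one-colour Agilent arrays were deposited as scanner output, with spot intensity values (gProcessedSignal) that the authors' Feature Extraction software (version 10.7.3.1 in the file headers, 10.7.1.1 in the submitters' processing notes) had background-subtracted. The authors also deposited a table of processed log2 values, used here as an alternative, whose column medians lie between 5.98 and 6.00. From the intensities, log2 values minus the 75th percentile of each array were computed, control spots were left out, and the probe with the highest mean stood for a gene. A model with 13 group means was fitted to all arrays with limma 3.58.1 in R 4.3.3 (14 residual and 4.18 prior degrees of freedom). Genes well above background on all arrays of either d1 BC group were tested, with Benjamini-Hochberg adjustment over all 23975, and scripts were checked on simulated data. The number of arrays limits the precision.

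Groups came from the labels. The 2 arrays with the same replicate number lay on the same slide in d1 BC, their deviations from the group means correlated with r = 0.557, and the slide was tried as a block. Named were Hprt, the measured members of the lists taken from the study (AP-1 family, vascular FOS:JUN targets, HSC-related genes, sorting markers), the 12 lowest and 12 highest genes with a symbol that were at least 2-fold apart in both replicates, up to 3 such members of each other list, and genes called with the slide as a block. Others named for their role in a list fall outside this rule and were chosen after their values were seen. The members and lists were chosen with earlier results of these data known. Where a gene was not above background in a group, the fold is given as a bound, from the bright group's mean and, for each dim array, the higher of the probe's own signal and the lowest signal among probes well above background. The 22 alternatives changed the background correction, normalization, filter, probe summary, slide and replicate blocks, arrays in the fit, variance model and thresholds, or left out each d1 BC array. Promoter bases were taken from RefSeq (GRCm38.p6) by symbol. Some genes of the lists are not reported here.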

Additional observations from a re-analysis of the deposited data

How the results depend on the processing

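The count of called genes was unstable under the processing. Against 1 higher and 1 lower, it was 1 and 0 with normexp, 2 and 3 with quantile normalization, 0 and 3 with median scaling, 2 and 3 with the authors' processed values, 0 and 0 without a filter and with both groups required above background, 1 and 0 with the slide as a fixed block and 1 and 3 as a random block. It was 0 and 0 with the 2 d1 BC groups alone, 0 and 2 with the 10 arrays of FLK1+ cells and complete cultures, 1 and 0 with a mean-variance trend, 2 and 4 with array weights, and 2 lower at an adjusted p under 0.1. The replicate block gave 0 and 0 in the 4 d1 BC arrays alone and 1 and 0 over all 27 arrays. Leaving out single arrays gave 0 to 12 higher and 0 to 56 lower.

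Genes higher and lower at an unadjusted p, against 134 and 259, numbered 69 and 167 with both groups above background, 294 and 398 with the fixed and 274 and 436 with the random slide block, 642 and 661 with the replicate block in the 4 arrays, 292 and 404 with the 2 groups alone, 288 and 453 with the 10 arrays, and 257 and 433 with array weights. Leaving out single arrays gave 79 to 424 higher and 209 to 439 lower. A fit of the 10 arrays with the slide as a block, chosen after seeing the data, called 0 higher and 1 lower and gave 494 and 573 at an unadjusted p. Effects that differed from those at 5 h numbered 2 with the slide as a fixed block and 0 to 5 when single arrays were left out, against SM cells 0 to 3 and against HE1 cells 0 to 2. The cause of these shifts was not tested.

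Among named genes, 1839 of the settings kept direction and side of the threshold, 22 lost and 11 gained the call, and 27 reversed. With normexp, Batf3 was 0.057, Itga2b 0.081, Junb 0.040 and Vegfa -0.31. Vegfa was -0.0018 with quantile normalization, -0.32 with the authors' values and -0.10 with the mean of probes, which also turned Itgam to 0.21. The authors' values gave -0.079 for Batf2, 0.038 for Batf3 and 0.0066 for Wt1. Leaving out single arrays gave -1.29 to 0.065 for Atf3, -1.30 to 1.58 for Batf2, -0.36 to 0.020 for Batf3, -1.44 to 0.0072 for Fosb, -1.10 to 0.85 for Itga2b, -0.20 to 1.59 for Jund, -1.34 to 0.39 for Kit, -1.63 to 0.67 for Nrp1, -2.64 to 0.98 for Tek, -0.12 to 0.21 for Vegfa and -0.35 to 0.22 for Wt1. Over all alternatives the median was -1.25 to -0.74 for AP-1 target genes and -1.23 to -1.0 for vascular FOS:JUN targets. It was -1.30 to -0.38 for collagens and -0.12 to 0.33 for all genes. Medians of several other lists changed sign. They ran from -0.36 to 0.03 for the AP-1 family, -0.46 to 0.05 for smooth muscle contractile genes and -0.19 to 0.76 for pluripotency genes. Those of hematopoietic transcription factors ran from -0.41 to 0.20 and of interferon response genes from -0.10 to 0.37.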
